A study of Bos taurus with 64 samples.

Results

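The genes of the cytosolic ribosomal proteins were followed in the Longissimus thoracis (LT) and the Semitendinosus (ST) of 32 Normand cows. They were taken as the non-control probes of the array whose gene name is RPL, RPS, RPLP or RPSP followed by a number, which leaves out the ribosomal protein kinases. This gave 54 genes on 55 probes and 58 spots, of 5449 transcripts, 13285 probes and 13414 spots in all. The large subunit was represented by 28 genes, RPLP0 and RPLP2 included, and the small subunit by 26. RPS3A had 2 probes and every other gene had 1. Genes of ribosomal proteins under another name, such as RPSA and FAU, were not in this selection.

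All cows were of the Normand breed, were finished for 101 ± 3 days and were slaughtered at an age of 4.5 ± 0.1 years. The 16 stressed cows were transported alone and spent 30 minutes in a labyrinth on a farm they did not know, a group that the labels call moderated stress, and the 16 other cows were slaughtered under limited stress. In each group, 8 cows received the basic lipid-rich diet, which held 40 g of extruded linseed and rapeseed lipids per kg of dry matter, and 8 received the same diet with vitamin E and plant extracts rich in polyphenols (EP diet). Both muscles were taken from each cow within 15 minutes after slaughter, which gave 64 single-colour arrays, 8 for each combination of muscle, stress and diet.

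The cytosolic ribosome reads the messenger RNA and makes the proteins of the cell. Its small subunit, built on 18S rRNA with the RPS proteins, decodes the message, and its large subunit, built on other rRNAs with the RPL proteins, forms the peptide bonds. RPLP0 and RPLP2 belong to the acidic stalk of the large subunit that recruits elongation factors, and the messengers of ribosomal proteins carry a 5′ terminal oligopyrimidine tract through which growth signals control their translation.

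The probes of 5 genes carry most of the findings below and are shown with the position that the array files give on the bovine assembly Btau_3.1. Capitals mark the bases shared with a custom probe of the same array, described further on, and for RPL27 the bases that are complementary to it. The probes of RPS9 and RPL35A showed the highest and the lowest log2 fold change between muscles, RPS28 was called for stress, the probes of RPS3A disagreed, and the probe named RPL27 was the reverse complement of its custom set. Which strand of the RPL27 pair is that of the messenger was not settled, so the value of the named probe is not read as that of the messenger. The named probe is still counted among the genes called lower in the LT. The intervals of RPS9, RPL35A and the second RPS3A probe are longer than the 60 bases of a probe, and that of RPL27 is shorter.
RPS9 (A_73_100093, chr18:63610890-63616289, plus strand): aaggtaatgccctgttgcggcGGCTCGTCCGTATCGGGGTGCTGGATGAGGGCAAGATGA
RPL35A (A_73_105684, chr1:71380907-71382176, minus strand): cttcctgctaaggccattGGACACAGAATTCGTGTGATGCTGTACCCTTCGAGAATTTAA
RPS28 (A_73_100464, chr7:15428848-15428907, plus strand): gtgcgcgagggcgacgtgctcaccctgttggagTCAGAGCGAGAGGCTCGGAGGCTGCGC
RPS3A (A_73_100800, chr17:7220461-7220520, minus strand): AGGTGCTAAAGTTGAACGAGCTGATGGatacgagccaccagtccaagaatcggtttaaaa
RPS3A (A_73_101464, chr17:7220872-7221439, minus strand): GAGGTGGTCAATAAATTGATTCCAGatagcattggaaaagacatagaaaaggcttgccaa
RPL27 (A_73_119499, chr19:44435313-44435337, minus strand): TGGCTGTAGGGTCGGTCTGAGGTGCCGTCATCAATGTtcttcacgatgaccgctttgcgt
Target1429 (custom probe with no position in the files): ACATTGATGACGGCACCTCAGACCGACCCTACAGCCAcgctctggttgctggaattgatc

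All 55 probes were well above background on all 64 arrays, and none of their spots was saturated. A level is the processed signal divided by the 75th percentile of its array, on a log2 scale, so that 0 is the level of a spot at that percentile. Of the 55 probes, 50 had a mean level above 0, up to 5.53 for RPS14. The exceptions were RPL34 (-1.07), RPL15 (-1.46), RPL37A (-2.50), RPL7 (-2.76) and RPL27 (-3.07). Levels of different probes are not set against each other, since each probe has its own affinity. RPL23 was set aside as an uneven or outlying spot on 2 arrays and RPL24 on 1, and these values were left out.

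Over the arrays, 71.4 to 80.9% of the non-control spots were well above background. LT and ST arrays lay on different slides and were scanned on different days, so a slide and a muscle cannot be told apart except by treating the slide as a random block, whereas both stress groups were on every slide. Of the skeletal muscle markers, ACTA1, CKM, DES and MB were on the array, and all 4 were lower in the LT. Fast fibre markers were lower in the LT for 3 of 3 genes, with a log2 summed level of 7.85 to 8.30 in the LT and of 7.93 to 8.58 in 29 arrays of the ST, the others having a spot set aside. Slow fibre markers were higher for 3 of 5 (TNNT1, TNNC1 and MYL3) and lower for MYH7, with a log2 summed level of 7.71 to 8.45 in the LT and of 7.18 to 8.37 in 29 arrays of the ST. Of the markers of other cell types, PECAM1 (endothelium) was higher and COL1A1 (fibroblasts) was lower in the LT, and those of fat and immune cells that could be tested were not called. The 2 blood markers on the array, HBB and ALAS2, were near background and could not be tested between muscles. None of the 9 marker lists had a call for stress in either muscle. The part of fibre type and of other cells in the differences below was not tested.

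The first comparison asked how the ribosomal protein messengers differed between the muscles of the same cows. The SE and p given come from a fit without the cow as a block, so they do not use this pairing. RPL35A, RPS27L, RPL5, RPS21 and RPS23 were lower in the LT, and RPS9, RPL15, RPL7, RPL10 and RPL10A were higher. In all, 32 of the 54 genes were called, 13 higher and 19 lower in the LT, where 51.7% of the 4230 transcripts tested were called, 21.9% as higher and 29.9% as lower. The share of ribosomal protein genes called was thus near that of all transcripts. Their median log2 fold change (LT minus ST) was -0.03 and that of all transcripts was -0.03, so the named probes did not move as a block and spread to both sides. In these bulk samples, fewer cells of a type and less RNA per cell cannot be told apart.

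**Figure D1:**
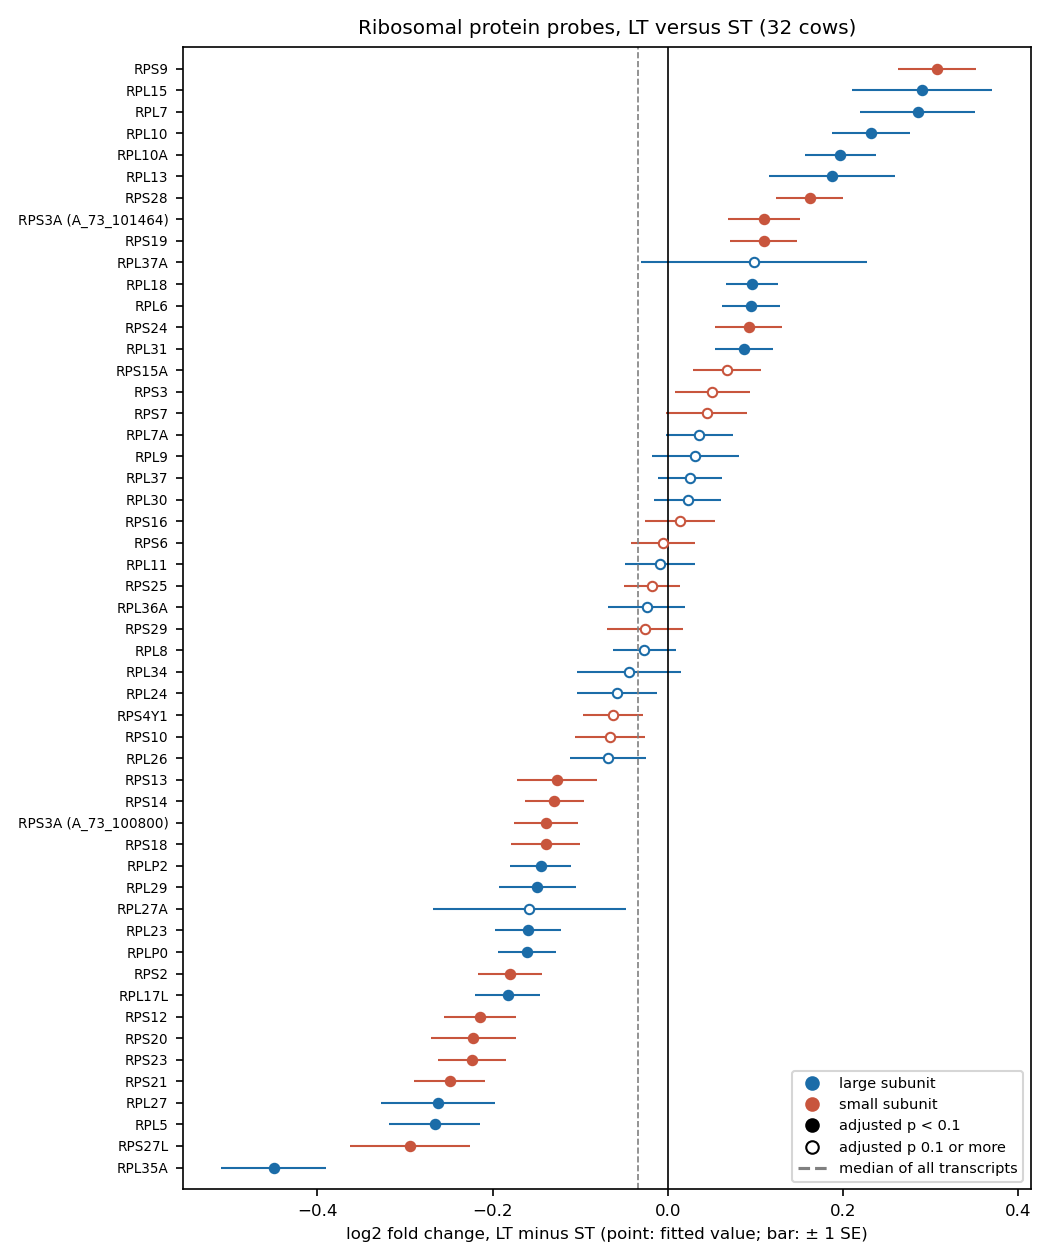
Log2 fold change between LT and ST of 52 ribosomal protein probes, sorted by size, with bars of 1 standard error, from the fit of 64 arrays. Filled points have an adjusted p under 0.1, and the values run from -0.45 for RPL35A to 0.31 for RPS9 around the median of all transcripts at -0.03.

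Of the large subunit, 8 genes were higher and 8 lower, the probe named RPL27 being counted among the lower. RPL35A, a protein of the large subunit that is needed for 60S maturation, had a level of 2.43 to 3.49 in the LT, with a median of 2.96, and of 2.92 to 3.78 in the ST, with a median of 3.44. The ranges overlapped, but LT lay below ST in 31 of 32 cows. The log2 fold change was -0.45 ± 0.06 (SE), a level 0.732-fold that of the ST, with an adjusted p of 6.36e-09.

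RPL5, which binds 5S rRNA and also takes part in the control of p53 through MDM2, ranged from 3.61 to 4.85 in the LT, with a median of 4.25, and from 4.19 to 4.79 in the ST, with a median of 4.58. The LT was lower in 27 of 32 cows, and the log2 fold change was -0.27 ± 0.05 (adjusted p = 2.03e-05). RPL11, its partner in the 5S particle, had a log2 fold change of -0.01 ± 0.04 (adjusted p = 0.870). The named probes of this pair thus had different values between muscles, a difference that was not tested directly. Other probes of RPL11 are given further on.

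RPL15, RPL7 and RPL10 stood at the upper end. RPL15 ranged from -2.47 to -0.70 in the LT (median -1.31) and from -2.96 to -1.20 in the ST (median -1.52), and LT was above ST in 27 cows, with a log2 fold change of 0.29 ± 0.08 (adjusted p = 0.00179). RPL7 ranged from -3.73 to -2.20 in the LT (median -2.56) and from -3.43 to -2.45 in the ST (median -2.88), with LT above ST in 27 cows and a log2 fold change of 0.29 ± 0.07 (adjusted p = 0.000217). RPL10, which joins the large subunit late in its maturation in the cytoplasm, had medians of 4.57 and 4.31 and a log2 fold change of 0.23 ± 0.04 (adjusted p = 1.41e-05). RPL10A, RPL13, RPL18, RPL6 and RPL31 were also higher in the LT, with log2 fold changes between 0.09 for RPL31 and 0.20 for RPL10A. RPL17L, RPL23 and RPL29 were lower, between -0.18 for RPL17L and -0.15 for RPL29. The probe named RPL27 was also lower (-0.26), whereas the custom probes of the other strand that share no bases with it lay between -0.03 and 0.08. RPL17L is named RPL17 in the RefSeq table of the assembly ARS-UCD2.0, and RPL23 was measured in both muscles of 30 cows.

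Both stalk proteins on the array were lower in the LT. RPLP0 ranged from 4.59 to 5.11 in the LT (median 4.98) and from 4.90 to 5.31 in the ST (median 5.11), and LT was below ST in 29 of 32 cows. Its log2 fold change was -0.16 ± 0.03 (adjusted p = 4.72e-05). RPLP2 ranged from 3.69 to 4.38 in the LT (median 4.14) and from 4.08 to 4.56 in the ST (median 4.27), with LT below ST in 25 cows and a log2 fold change of -0.15 ± 0.03 (adjusted p = 0.000345). Scaling to the control features brought both to the other side of 0 (0.03 and 0.04).

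Of the small subunit, 5 genes were higher in the LT and 11 were lower. RPS9, which lies near the decoding centre, ranged from 1.89 to 2.73 in the LT, with a median of 2.11, and from 1.65 to 2.06 in the ST, with a median of 1.87. LT was above ST in 31 of 32 cows, with a log2 fold change of 0.31 ± 0.04 (adjusted p = 5.36e-08). RPS28, RPS19 and RPS24 were higher too, from 0.09 for RPS24 to 0.16 for RPS28.

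RPS27L, the paralogue of RPS27 that is a target of p53, ranged from 0.04 to 1.53 in the LT (median 0.96) and from 0.77 to 1.69 in the ST (median 1.26). LT lay below ST in 26 cows, and the log2 fold change was -0.29 ± 0.07 (adjusted p = 0.000245). Small subunit genes that were lower in the LT as well were RPS21 (-0.25), RPS23 (-0.22), RPS20 (-0.22), RPS12 (-0.21), RPS2 (-0.18), RPS18 (-0.14), RPS14 (-0.13) and RPS13 (-0.13). For RPS23, RPS12 and RPS2, LT was below ST in 30 of 32 cows.

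RPS6, the substrate of the S6 kinases, was not called. It ranged from 4.23 to 4.77 in the LT (median 4.50) and from 4.18 to 4.86 in the ST (median 4.52), with a log2 fold change of -0.01 ± 0.04 (adjusted p = 0.914) and a 95% interval from -0.08 to 0.07. RPS4Y1, which the files place on chromosome 23, ranged from 1.15 to 1.82 in the LT (median 1.41) and from 1.21 to 1.68 in the ST (median 1.45), with a log2 fold change of -0.06 ± 0.03 (adjusted p = 0.123). RPS3A had a probe on each side. Its probe A_73_100800 was at -0.14 ± 0.04 (adjusted p = 0.00112) and its probe A_73_101464 at 0.11 ± 0.04 (adjusted p = 0.0221), so that the gene was not called although both probes passed the threshold.

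**Figure D2:**
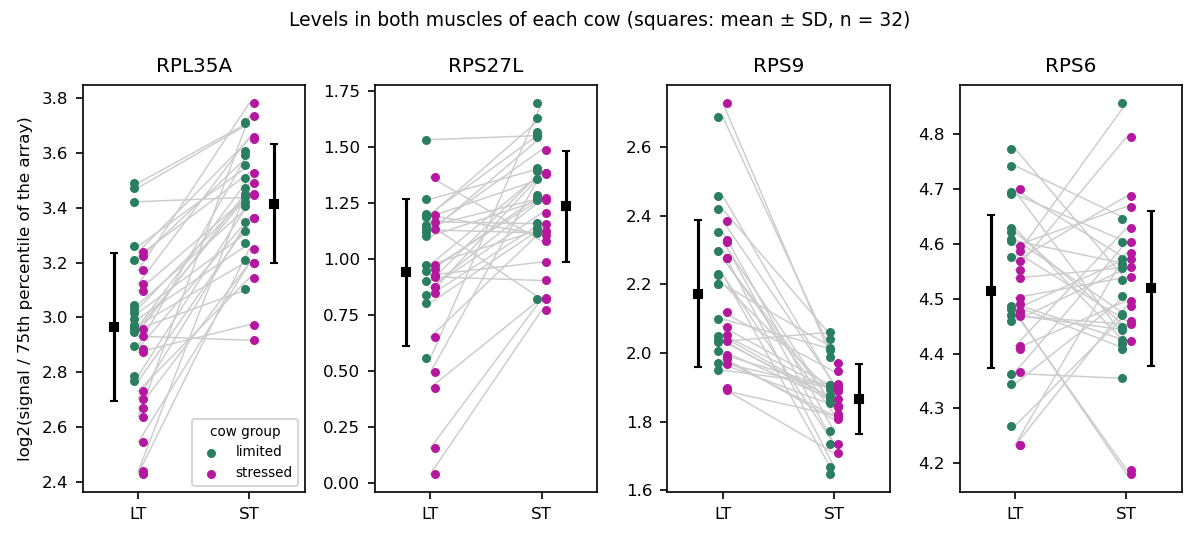
Level of RPL35A, RPS27L, RPS9 and RPS6, as log2 of the signal over the 75th percentile of the array, in the LT and the ST of each cow (points, coloured by stress group, lines joining the muscles of a cow). Squares are means ± SD of 32 cows. RPL35A was lower in the LT in 31 cows, RPS9 was higher in 31, and RPS6 shows no common direction.

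The split depended on the scaling. Without scaling, 27 of the 54 genes were higher and 6 lower in the LT, where 36.6% and 14% of all transcripts were. Scaling to the control features gave 15 and 1, where 27.1% and 5.79% of all were called. Quantile normalization gave 12 and 23, beside 23.7% and 28.3% of all. With the cow as a block, 13 were higher and 20 lower, where 62% of all transcripts were called. The gene added was RPL27A (-0.16, adjusted p = 0.000551 by limma with this block). The median over all transcripts was 0.09 without scaling and 0.15 with the control features, against -0.03. When each value was taken relative to that median, the 13 genes called higher and the 19 called lower kept their side under all 5 scalings. For the main, the unscaled and the control feature values, which differ only by a constant for each array, this agreement was fixed in advance. Only quantile normalization, with or without normexp, could have changed a side.

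Other probes of the same arrays gave a further reading of 28 of the genes. The custom probe sets of the array carry no gene name, and 29 of them shared at least 25 bases with probes of a single ribosomal protein gene, 28 on the same strand and 1 on the opposite strand. Probes of these sets that share no such stretch with a named probe were measured on the same RNA but at another place. On the same strand there were 105 of them for 27 genes. They are not replicates, since they share the arrays and the transcript.

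**Figure D3:**
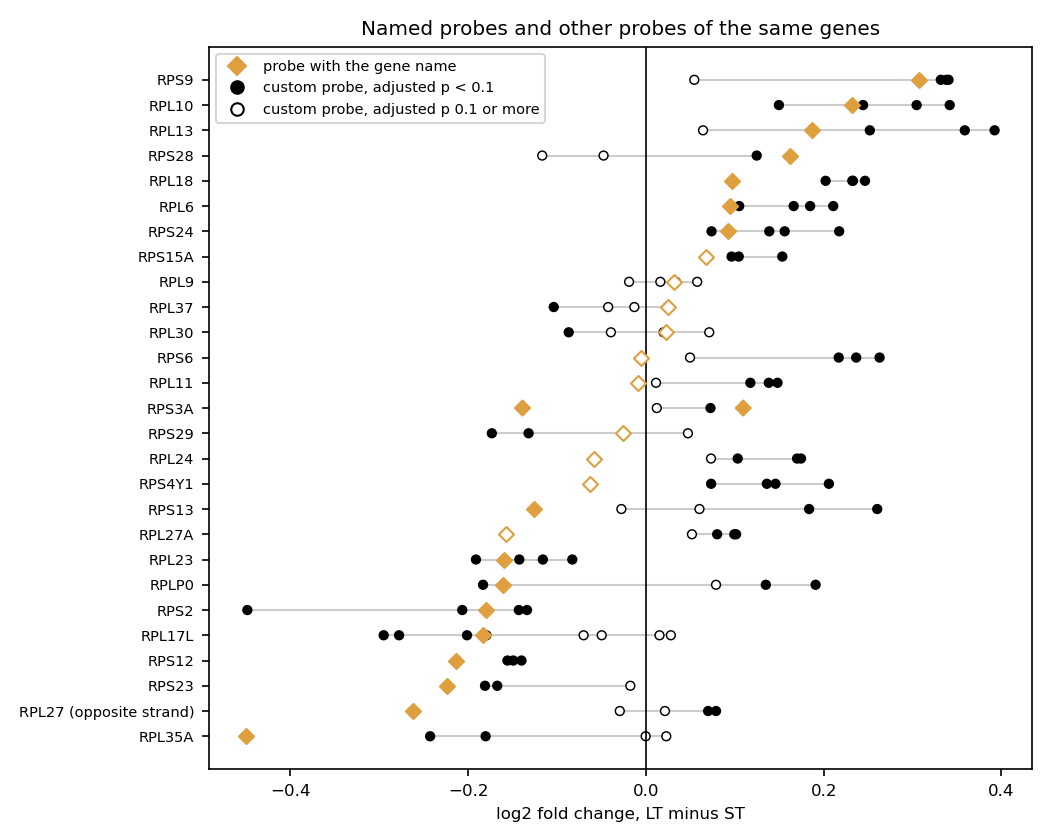
Log2 fold change between LT and ST of the named probe (diamonds) and of the other custom probes of the same gene (circles), filled where the adjusted p was under 0.1. For RPS9, 3 circles lie at 0.33 to 0.34 beside the diamond at 0.31 and 1 lies at 0.05, and for RPS13, RPS6 and RPS4Y1 most circles lie to the right of the diamond.

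For genes called higher in the LT, the custom probes lay mostly on the same side. Of the 27 custom probes of 7 such genes, 25 were above 0 and 23 passed the threshold as higher, and none passed as lower. For RPS9, 3 of the 4 other probes were at 0.33 to 0.34 and the fourth was at 0.05. RPL10, RPL18, RPL6 and RPS24 had all 4 other probes past the threshold in the same direction. RPS28 was an exception, with other probes from -0.12 to 0.12.

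For genes called lower, the custom probes were divided. Of 38 custom probes of 9 such genes, 25 were below 0 and 20 passed as lower, but 7 passed as higher. All the other probes of RPS12 (-0.16 to -0.14), RPS2 (-0.45 to -0.13) and RPL23 (-0.19 to -0.08) were lower in the LT. RPL35A had custom probes at -0.24, -0.18, 0.00 and 0.02. RPLP0 had 2 of 4 probes past the threshold as higher and 1 as lower (-0.18 to 0.19), and RPS13 had 2 of 4 as higher (-0.03 to 0.26). The direction of RPLP0 and RPS13 between muscles thus depended on the probe.

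The genes that were not called on their named probe were not all without a difference on the custom probes. Of the 40 custom probes of 11 such genes, 20 passed as higher and 4 as lower in the LT. For RPS6, 3 of 4 passed as higher, within a range of 0.05 to 0.26, and for RPS4Y1 all 4 did, within 0.07 to 0.21. For RPL11, 3 of 4 also passed as higher, within 0.01 to 0.15. Of the custom probes on the strand opposite to the probe named RPL27, 2 of 4 passed as higher. Over the 27 genes, 50 of the 105 custom probes (47.6%) were higher and 24 (22.9%) lower in the LT, where 28.1% and 30.3% of all 7721 custom probes tested were. Their median log2 fold change was 0.07, against -0.01 over all custom probes and -0.03 over the 55 named probes. The named probes thus lay near the median of other transcripts between muscles and the custom probes above it, a difference that was not tested. The source of the differences between probes of a gene was not tested.

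The second comparison asked for the effect of stress before slaughter. In the LT, 53 of the 54 genes had a log2 fold change (stressed minus limited stress) below 0, RPL15 being the exception at 0.04, and the median was -0.13. Over all 4311 transcripts tested in the LT, 65.2% were below 0 and the median was -0.05. Each single change was small, and 1 gene was called, RPS28, as lower, where 3.73% of all transcripts were called and 1.53% as lower. At an unadjusted p under 0.05 there were 24 of the 54 genes, and 13.6% of all transcripts. Counts of genes in 1 direction are not independent, since the ribosomal protein levels of an array rise and fall together.

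RPS28, a small protein of the 40S subunit, ranged in the LT from 4.11 to 4.52 under limited stress (median 4.29) and from 3.68 to 4.32 in stressed cows (median 4.15). The groups overlapped over most of their range. The log2 fold change was -0.19 ± 0.06 (adjusted p = 0.0961), or 0.879-fold. Over the 11 other settings its adjusted p ranged from 0.0395 to 0.409, and it was called in 6 of them. These settings include the values of the series table, which equal the processed signals and so had to give the same call. They also include the same fit at an adjusted p under 0.05. In the ST RPS28 ranged from 3.76 to 4.27 under limited stress (median 4.07) and from 3.75 to 4.18 in stressed cows (median 4.03), with a log2 fold change of -0.09 ± 0.05 (adjusted p = 0.373). The other custom probes of RPS28 were at -0.21, -0.22 and -0.30 in the LT, and the first of these passed the threshold (adjusted p = 0.0648).

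RPS23, which contributes to the fidelity of decoding, ranged in the LT from 3.52 to 4.19 under limited stress (median 3.71) and from 3.29 to 3.91 in stressed cows (median 3.55), with a log2 fold change of -0.18 ± 0.06 (adjusted p = 0.116). The groups overlapped, and the value did not pass the threshold. The fit with the cow as a block, which uses both muscles of each animal, called 8 genes as lower in the LT of stressed cows, where 5.72% of all transcripts were called and 3.1% as lower. Among them were RPS28, RPS23, RPLP2, RPL23, RPS25, RPS21 and RPS10, with adjusted p from 0.0395 for RPS28 to 0.0958 for RPS10 and log2 fold changes from -0.19 for RPS28 to -0.14 for RPS25.

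RPS27L had a log2 fold change of -0.25 ± 0.11 in the LT (adjusted p = 0.233) and of -0.20 ± 0.08 in the ST (adjusted p = 0.2), and it was the ribosomal protein gene with the smallest unadjusted p in the ST (0.0217). It ranged in the LT from 0.56 to 1.53 under limited stress (median 1.13) and from 0.04 to 1.36 in stressed cows (median 0.90), and in the ST from 0.82 to 1.69 (median 1.32) and from 0.77 to 1.49 (median 1.14). The stressed cows were shifted downward in both muscles, with overlap throughout, and neither value passed the threshold.

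In the ST no ribosomal protein gene was called by limma, where 3.6% of all transcripts were, and 1 had an unadjusted p under 0.05, where 12.9% of all transcripts had. The median log2 fold change was -0.03 and 40 of the 54 genes were below 0, against -0.06 and 69.8% over all 4246 transcripts. Relative to the median of all transcripts, 45 genes lay above it in the ST with the main scaling, whereas in the LT 51 lay below it. In the ST, only 33 of the 54 genes kept their side of this median under all 5 scalings. In the LT, RPS28 and 50 of the 53 genes not called kept theirs. The side of single genes in the ST thus depended in part on the scaling. Scaling to the control features turned the ST median to 0.07 and no scaling turned it to 0.12, while all 5 scalings kept the LT median below that of all transcripts. For the scalings that differ only by a constant for each array, this agreement was fixed in advance.

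**Figure D4:**
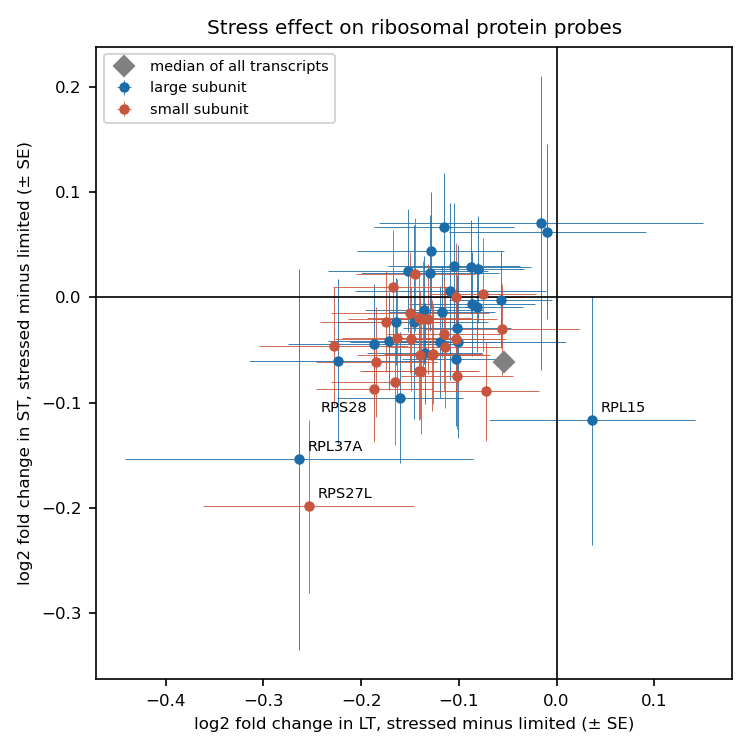
Stress effect on each ribosomal protein probe in the LT (horizontal) and the ST (vertical), as log2 fold change with bars of 1 standard error (32 arrays per muscle). Nearly all points lie left of 0, with a median of -0.13 in the LT, and they spread around a median of -0.03 in the ST. The grey diamond is the median of all transcripts.

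The custom probes showed the same side of 0 in the LT. All 105 custom probes of 27 genes had a log2 fold change below 0 in stressed cows, where 62.7% of all custom probes had, and 1 of them, of RPS28, passed the threshold. The median over the sets was -0.12. In the ST, 24 of 28 sets had a median below 0, and no probe passed. These probes share their arrays with the named probes and would follow any shift of a whole array.

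The shift was examined by array. The deviation of an array was taken as the median over the 55 probes of their distance from the mean of the muscle. In the LT it ranged from -0.22 to 0.25 under limited stress, with a median of 0.08, and 5 of 16 arrays were below 0. In stressed cows it ranged from -0.39 to 0.16, with a median of -0.02, and 12 of 16 were below 0. In the ST the deviations ranged from -0.16 to 0.25 under limited stress and from -0.21 to 0.15 in stressed cows, with 6 and 7 of 16 below 0. The spread between cows of a group, with an SD of 0.12 and 0.13 in the LT, was similar in size to the difference between the stress groups.

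Within the 4 slides of the LT, the median difference of the probes was -0.06, -0.03, -0.30 and -0.07, with 50, 39, 54 and 46 of the 55 probes below 0. The medians of all tested probes on these slides were -0.02, -0.06, -0.04 and -0.07. The ribosomal protein probes thus lay below all probes on 2 of the slides, and furthest on a slide with 5 stressed and 3 limited stress cows. Without that slide, chosen after its values were seen, the median difference of the group means was -0.07 (52 of 55 probes below 0) against -0.05 over all tested probes, where all slides gave -0.13 against -0.05, and that of RPS28 was -0.10 against -0.19. The size of the shift relative to other transcripts in the LT thus rested mostly on 8 arrays of 1 slide. With the slide as a block in the fit, RPS28 was not called (-0.18, adjusted p = 0.115). In the ST the slides gave -0.06, -0.01, 0.01, 0.04 and -0.14. The 75th percentile itself was higher in stressed cows by a log2 difference of 0.04 (LT) and 0.15 (ST), and its part in these values was not tested.

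The stress effects of the muscles were compared by their interaction. It was below 0 (lower in the LT than in the ST) for 52 of 54 genes, where 47.6% of all transcripts were, with a median of -0.10 against 0.01. However, limma called none of the ribosomal protein genes, and 0% of all transcripts. At an unadjusted p under 0.05 there were 1.94% of all transcripts and 4 of these genes, RPS10 (-0.18 ± 0.08), RPL26 (-0.18 ± 0.09), RPS18 (-0.17 ± 0.08) and RPLP2 (-0.14 ± 0.07), each with an adjusted p of 0.999. With the cow as a block 8 genes had an unadjusted p under 0.05, where 4.87% of all transcripts had, and none was called, where 0.165% of all transcripts were. The stress effect on single ribosomal protein genes was therefore not shown to differ between the muscles.

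The same values can be read as the muscle difference within each stress group. Under limited stress, 13 genes were higher and 12 lower in the LT, where 38.4% of all transcripts were called (15.8% higher, 22.6% lower), and the median was 0.03. In stressed cows, 7 were higher and 22 lower, where 36.2% of all transcripts were called (15.7% higher, 20.5% lower), and the median was -0.07. RPL35A was at -0.37 ± 0.08 under limited stress and at -0.53 ± 0.08 in stressed cows, and RPS9 at 0.32 ± 0.06 and 0.29 ± 0.06, all past the threshold. RPS28 was at 0.21 ± 0.05 (adjusted p = 0.00132) and at 0.11 ± 0.05 (adjusted p = 0.0977).

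The third comparison concerned the diet and its interplay with stress. With limma no ribosomal protein gene was called between the EP diet and the lipid-rich diet in the LT or in the ST, and 0% of all transcripts were. At an unadjusted p under 0.05 there was 1 gene in the LT and there were 7 in the ST, where 2.88% and 3.74% of all transcripts were. RPL13 had the smallest p in both muscles, with a log2 fold change (EP minus lipid-rich) of -0.24 ± 0.11 in the LT (adjusted p = 0.979) and -0.31 ± 0.09 in the ST (adjusted p = 0.536). RPL15 (-0.20 ± 0.11) and RPL37A (-0.23 ± 0.18) followed in the LT, and RPS3 (-0.15 ± 0.06) and RPS15A (-0.13 ± 0.06) in the ST. The median was 0.01 in the LT and -0.07 in the ST, where 45 of 54 genes were below 0. Over all transcripts the medians were 0.0031 and 0.0025, with 48.4% and 48.8% below 0.

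Within the diets, the median stress effect in the LT was -0.16 on the lipid-rich diet and -0.10 on the EP diet, with 51 and 54 of the 54 genes below 0 and none called, where 1.09% and 1.16% of all transcripts were. Over all transcripts the medians were -0.06 and -0.04, with 63.7% and 61.4% below 0. At an unadjusted p under 0.05 there were 17 genes on the lipid-rich diet and 0 on the EP diet, where 9.86% and 5.98% of all transcripts were. In the ST the medians were 0.01 and -0.06, and none was called, where 2.59% and 0.777% of all transcripts were. The interaction of stress and diet was not called by limma for any gene in either muscle, with 0 genes at an unadjusted p under 0.05, where 1.83% (LT) and 3.49% (ST) of all transcripts were. Among the smallest p were those of RPL34 (0.20 ± 0.15), RPL15 (-0.25 ± 0.21) and RPS4Y1 (0.13 ± 0.11) in the LT, and of RPL18 (-0.13 ± 0.08) and RPL24 (-0.16 ± 0.11) in the ST.

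A few genes varied widely between cows, and some of them in the same cows in both muscles. Within the groups of stress and diet, the SD between cows had a median over the probes of 0.16 (LT) and 0.14 (ST). It was 0.52 and 0.53 for RPL37A, 0.48 and 0.41 for RPL27A, 0.32 and 0.26 for RPL13, 0.30 and 0.34 for RPL15, 0.31 and 0.23 for RPS27L, and 0.29 and 0.23 for RPL7. RPL27A ranged from 2.12 to 4.11 in the LT (median 3.70) and from 2.34 to 4.13 in the ST (median 3.84), RPL37A from -3.65 to -1.63 (median -2.38) and from -3.91 to -1.67 (median -2.50), and RPL13 from 2.44 to 3.98 (median 3.30) and from 2.41 to 3.6 (median 3.16). The range of RPL27A over single cows was thus wider than the muscle and stress differences of these genes. A range over cows and a difference of means are unlike measures, so their sizes are not compared further.

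The deviations of a cow from its group mean in the LT and in the ST were correlated for 53 probes that had all 64 values, with permutation tests (100000 permutations within the groups, two-sided) adjusted over these 53. For RPL27A, Pearson's r was 0.91 (p = 1e-05, the smallest that the permutations can give, adjusted p = 0.000177) and Spearman's rho was 0.88 (adjusted p = 0.000265), over 32 cows. For RPL13 r was 0.86 and rho 0.84, and for RPL37A r was 0.80 and rho 0.68, with adjusted permutation p of 0.000177 for each r and of 0.000265 and 0.00159 for rho. Without the 2 cows furthest from the median in the LT, r was 0.85, 0.82 and 0.72. Within the LT slides of 8 cows, r ranged from 0.48 to 0.93 for RPL27A, from 0.71 to 0.93 for RPL13 and from 0.64 to 0.92 for RPL37A.

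RPL15 had an r of 0.65 (adjusted permutation p = 0.0452) and a rho of 0.43 (adjusted permutation p = 0.0810), and r fell to 0.41 without the 2 furthest cows, so the relation rested in part on them. RPS27L (r = 0.31, rho = 0.26, adjusted permutation p = 0.227 and 0.301) and RPL7 (r = 0.47, rho = 0.31, adjusted permutation p = 0.109 and 0.243) did not pass the threshold, so wide variation was not always shared between the muscles. Of the 53 probes, 11 had an adjusted permutation p under 0.05 for r and 7 of these also for rho, and r was above 0.7 for 3. Over all 55 probes the median r was 0.27, from -0.09 for RPS4Y1 to 0.91.

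**Figure D5:**
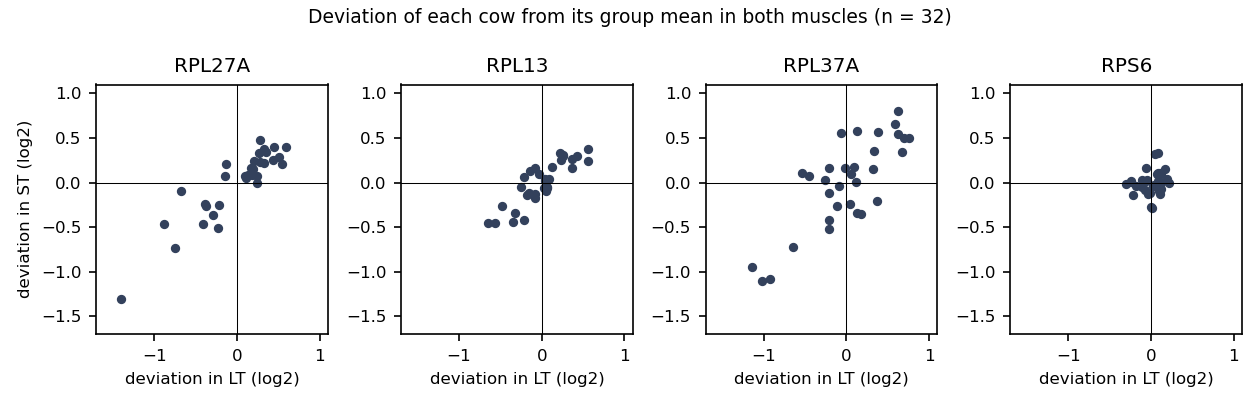
Deviation of each of the 32 cows from the mean of its stress and diet group in the LT (horizontal) and the ST (vertical), on the log2 scale with the same axes for all genes. Points of RPL27A, RPL13 and RPL37A follow a rising line (r = 0.91, 0.86 and 0.80) over more than 1 log2 unit, and those of RPS6 stay close to 0.

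The custom probes divided these genes. For RPL27A, the custom probe that shares bases with the named one had an SD of 0.26 (LT) and 0.16 (ST), and the other 4 had 0.14 to 0.15 and 0.11 to 0.14. For RPL13, the probe that shares bases had 0.31 and 0.26, another 2 had 0.34 to 0.40 and 0.24 to 0.38, and the last 2 had 0.14 to 0.15 and 0.15 to 0.18. The wide variation between cows was thus read by part of the probes of the transcript. No custom set matched RPL37A or RPL15, and the source of this variation was not tested.

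Other genes of the translation machinery were set beside the ribosomal proteins. Of the ribosomal proteins with another name, FAU and RPSA were on the array, and RPSA was lower in the LT than in the ST (-0.16 ± 0.05, adjusted p = 0.00528). Neither was called for stress (-0.17 and -0.11 in the LT). Of the 29 mitochondrial ribosomal proteins, 10 were higher and 6 lower in the LT than in the ST, where 21.9% and 29.9% of all transcripts were. Their median was 0.02, against -0.03 over all transcripts. In stressed cows, 2 of these proteins were lower in the LT (MRPL20 and MRPL48) and 1 in the ST (MRPL23), where 1.53% and 2.12% of all transcripts were. The medians were -0.11 and -0.05, against -0.05 and -0.06 over all transcripts. The mitochondrial set thus also had a median below that of all transcripts in the LT of stressed cows.

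Of 18 initiation factor transcripts tested, 3 were higher and 6 lower in the LT than in the ST, and 1, EIF1AD, was lower in the LT of stressed cows. Over all transcripts, 21.9% were higher and 29.9% lower between muscles, and 1.53% were lower with stress in the LT. None of 3 elongation factor genes was called, EEF1B2 being at -0.15 ± 0.06 for stress in the LT (adjusted p = 0.245). Of 5 ribosome biogenesis genes, NOL6 (-0.17 ± 0.06) and PES1 (-0.12 ± 0.05) were lower in the LT than in the ST, and IMP3, of the small subunit processome, was lower in the LT of stressed cows (-0.43 ± 0.12, adjusted p = 0.0466). None of the 10 genes listed for the control of oligopyrimidine messengers, such as MTOR and LARP1, was found on the array by its name.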

How the data were processed

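Per the labels, total RNA of 64 muscle samples was amplified from oligo-dT primers, labelled with Cy3 and hybridised to Agilent arrays. Per the file headers, the deposited intensities are processed signals of Agilent's Feature Extraction, background-subtracted and detrended, without scaling between arrays. Gene names are those of the files, and the RefSeq table held the accession of 50 of the 54 genes.

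Spots marked as uneven or as outliers were set aside, the log2 of the intensity over the 75th percentile of the array was averaged over the spots of a probe, and a probe was tested where 11 or more of the 32 arrays of each muscle in the fit had it well above background. Groups of stress and diet, and of muscle, were compared with limma 3.58.1 (R 4.3.3, statmod 1.5.0), two-sided, with Benjamini-Hochberg adjustment over all tested probes. The main fit between muscles had no block for the cow. A gene counts as called where its probes, at a share of 80% or more, passed an adjusted p of 0.1 in 1 direction. The fits were tested on simulated data. Named are the called genes (up to 15 in each direction), the 3 with the smallest p in each comparison, paralogues and stalk proteins, and RPS3A. The genes of wide cow-to-cow variation and the custom probe sets were chosen after their values were seen. The members and the lists were chosen with earlier results of these data known. The labels number the cows, which ties the muscles of an animal, and their deviations from the group means correlated over 10254 probes in every cow (r from 0.10 to 0.76). The precision is limited by the number of arrays. A few genes are counted but not reported here by name.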

Additional observations from a re-analysis of the deposited data

Results flagged for a closer look

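In 160 groups of 8 arrays or fewer (20 probes of 19 genes in 8 groups each), 17 had an array far from the others by Dixon's test at the 95% level. Chance marks about 1 group in 20. All values are levels, as the log2 of the signal over the 75th percentile, and the comparisons above include these arrays.

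For RPL15, cow287 stood low in the stressed EP group in both muscles, at -2.47 in the LT (others -1.60 to -0.98) and -2.96 in the ST (others -1.78 to -1.35), and cow297 in the ST of the stressed lipid-rich group, at -2.38 (others -1.56 to -1.28). For RPL27A, cow316 of the limited stress lipid-rich group was at 2.12 in the LT (others 3.13 to 4.02) and 2.34 in the ST (others 3.41 to 4.13). cow321 of the stressed lipid-rich group was at 2.78 in the LT (others 3.39 to 3.77) and 3.09 in the ST (others 3.82 to 4.03). The low cow was thus the same in both muscles.

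For RPL7 the arrays were all of the LT, at -3.12 (cow320, limited stress, lipid-rich), -3.01 (cow324, stressed, EP) and -3.73 (cow305, stressed, lipid-rich). For RPLP0 they were LT arrays of limited stress cows, at 4.63 (cow314, EP) and 4.75 (cow316, lipid-rich). cow321 also stood low in the ST for RPS28, at 3.75, and for the RPS3A probe A_73_100800, at 4.71. Single arrays were RPS4Y1 at 1.82 in the LT (cow308, limited stress, lipid-rich), RPS6 at 4.86 in the ST (cow259, limited stress, lipid-rich) and RPS9 at 1.65 in the ST (cow314, limited stress, EP).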

How the results depend on the processing

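The counts of called genes between LT and ST stayed within 1.5 times of 32 in every setting tried except scaling to the control features, which gave 16. That scaling divides by the low signal of the control features, with a median of 1.73 to 6.36 per array. The 75th percentile of the arrays was 2470 to 4202. The number higher in the LT moved from 13 to 27 without scaling and to 8 with the scan day as a random block. The number lower moved from 19 to 1 with the control features and to 6 without scaling. With the cow as a replicate block, 13 genes were higher and 20 lower, and with the slide as a random block added, a setting chosen after the data were seen, 10 and 19. With the control features, 6 genes called lower turned above 0: RPL17L (0.00461), RPL29 (0.0386), RPLP0 (0.0263), RPLP2 (0.0422), RPS18 (0.0483) and RPS2 (0.00734). Of the 22 genes not called, 18 changed sign under at least 1 of the scalings. Of those named above, the values with the control features and without scaling were those of RPS3A (0.17, 0.11), RPS4Y1 (0.12, 0.0646) and RPS6 (0.18, 0.12).

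For stress in the LT the count of 1 moved to 8 with the cow as a replicate block, to 2 with normexp and quantile normalization, to 2 when scan days were blocked, and to 0 with the control features, without scaling, without the filter on dim probes and at an adjusted p under 0.05. With the slide as a block RPS28 was no longer called. The cow block changed no other call of stress or diet. For stress in the ST, RPS28 changed sign with the control features (0.00852) and without scaling (0.0618), and so did RPS4Y1 (0.0063, 0.0596). With the control features RPL15 for diet in the LT was 0.00164, and for the interaction of stress and diet in the LT RPL34 was -0.10 and RPS4Y1 was -0.18. The values of the series table equal the processed signals and gave the same counts. Besides the scalings, the cause of these changes was not tested. The signal limits little here, since all member probes were well above background on every array.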
